A study of Mus musculus with 6 samples.

Results

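Gastrin and the peptide hormones around it were followed in the stomach antrum of 3 mouse strains. The set held 9 genes, Gast, Sst, Ghrl, Grp, Cck, Gip, Sct, Nts and Tac1, of 12393 genes measured. They were taken by name, as hormones of antral and duodenal endocrine cells together with Grp, the neural releaser of gastrin, and all 9 probe sets whose platform symbol was one of these names were used. Each gene had 1 probe set. The strains were Satin, with C57/BL6 (BL6) and Beige as the controls, and each was measured on 2 arrays of antral RNA. The labels tie the study to the cell lineages of the stomach and to FOXQ1, a transcription factor of the forkhead family. As background, the satin coat mutation lies in Foxq1 and the beige coat mutation in Lyst. The sources used here do not give the alleles these mice carried, their genetic backgrounds, ages or sexes, any fasting, or any treatment. Foxq1 transcript itself was 0.54 log2 units higher in Satin than in the controls without being called (SE 0.16, adjusted p = 0.167), and its level says nothing on whether the gene is mutated.

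Gastrin is made by G cells, the endocrine cells that are typical of the antrum. Peptides and amino acids in the lumen and gastrin-releasing peptide from nerve endings release it, and somatostatin from neighbouring D cells restrains it. Gastrin acts through the CCK2 receptor (Cckbr) on histamine cells and parietal cells of the gastric body, where acid secretion follows. Ghrelin comes from other gastric endocrine cells, while cholecystokinin, GIP, secretin and neurotensin belong mainly to the small intestine.

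The promoters of Gast, Cck and Sst are shown because Gast was the only endocrine hormone of the set that was called and the other 2 hold the searched motifs that the Gast window lacks. Sequences are the 250 bases before the RefSeq start of each gene in GRCm38.p6, 5′ to 3′ on the gene's own strand. They lie at chr11:100334157-100334406 (+) for Gast, chr9:121495695-121495944 (-) for Cck and chr16:23890845-23891094 (-) for Sst. Capitals mark the motif found.
Gast: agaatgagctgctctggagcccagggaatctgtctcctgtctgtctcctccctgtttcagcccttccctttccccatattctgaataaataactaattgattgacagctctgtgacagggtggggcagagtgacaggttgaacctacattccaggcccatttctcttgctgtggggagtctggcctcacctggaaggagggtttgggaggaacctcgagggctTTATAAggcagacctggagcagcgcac
Cck: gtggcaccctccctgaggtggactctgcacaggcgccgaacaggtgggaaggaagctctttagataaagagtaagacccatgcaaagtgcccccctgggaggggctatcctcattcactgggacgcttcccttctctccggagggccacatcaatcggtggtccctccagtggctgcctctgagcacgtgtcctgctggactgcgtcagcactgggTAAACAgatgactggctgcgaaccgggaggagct
Sst: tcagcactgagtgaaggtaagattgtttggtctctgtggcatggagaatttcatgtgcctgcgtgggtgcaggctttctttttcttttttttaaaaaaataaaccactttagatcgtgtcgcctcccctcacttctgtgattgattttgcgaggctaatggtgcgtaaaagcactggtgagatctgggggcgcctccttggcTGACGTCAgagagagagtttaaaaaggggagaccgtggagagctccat

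Both strands of each window were searched for TGTTTA, a forkhead core, for TGACGTCA, the cyclic AMP response element, and for TATAA, core of the TATA box. Of 32851 windows of the same length, 12.0% held TGTTTA, 1.55% held TGACGTCA and 22.8% held TATAA. In Gast the capitals TTATAA are overlapping matches of TATAA on the 2 strands, between 27 and 22 bases before the start. In Cck the capitals TAAACA are TGTTTA read on the other strand, 34 to 29 bases before the start. The Sst window held TGACGTCA 48 to 41 bases before the start. The Ghrl window had TGTTTA on the other strand at 83 to 78 bases before the start. TATAA was not limited to Gast. A Gip window held it 113 to 109 and 25 to 21 bases before the start, and a Sct window 28 to 24 bases before. A promoter entry was found for 8 of the 9 genes, and Grp had none. A match is a description of letters, not a shown binding site.

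The Satin antrum had less gastrin transcript and more Grp transcript than the mean of both control strains. Against the single control strains, Gast was called lower against Beige only and Grp higher against BL6 only. Gast fell 2.64-fold and Grp, the peptide that releases gastrin, rose 2.67-fold against the mean of both controls. The other 4 hormones that could be tested, Sst, Ghrl, Cck and Tac1, were not called. Gip, Sct and Nts lay in the lowest 30% of probe sets on average, below a level of 5.74, and were not tested. A level here is log2(signal + 32) after quantile normalization, and a gene was called at an adjusted p under 0.05 (limma, Benjamini-Hochberg over 9395 genes). Of all genes tested, 1.43% were called in this comparison, 0.426% higher and 1.00% lower, beside 1 of 6 hormones called in each direction. In bulk RNA of this kind, fewer cells of a type and less RNA per cell cannot be told apart.

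The deposited Gast signals were, for Satin, 1456.9 and 2580.4, for Beige 3724.3 and 5086.6 and for BL6 3298.8 and 3392.4. Both Satin arrays lay below all 4 control arrays, and the lower of them, Satin replicate 1, lay well below the other. The mean Satin signal was 0.521 of the mean control signal. The arrays differed in overall brightness, with median signals of 74.15 and 58.6 in Satin against 38.2 to 49.5 in the controls. After normalization the Gast level was 10.66 ± 0.63 (SD, n = 2) for Satin, 12.16 ± 0.10 for Beige and 11.95 ± 0.16 for BL6. The difference from the mean of both controls was -1.40 (SE 0.22, 95% interval -1.90 to -0.89, adjusted p = 0.0183). Against Beige alone Gast fell by 1.50 (SE 0.26, adjusted p = 0.0330), in a comparison that called 0.905% of genes (0.224% higher, 0.681% lower). Against BL6 alone the difference of -1.30 (SE 0.26, adjusted p = 0.0660) was not called, and 0.745% of genes were (0.224% higher, 0.522% lower). These comparisons share the Satin arrays. In the order Beige, BL6, Satin, the first 2 did not differ beyond their spread (0.20, SE 0.26, adjusted p = 0.913).

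The Gast call rested on few arrays. With Beige replicate 1 left out its adjusted p was 0.143, with Beige replicate 2 left out 0.135, and with Satin replicate 1 left out 0.122 (difference -0.97). With Satin replicate 2 left out it was 0.00158 (-1.85). It was 0.0515 with no filter on dim genes, 0.133 without the intensity trend in the variance and 0.110 with the Gapdh 5′ to 3′ ratio, a measure of RNA integrity, as a covariate. That ratio was 0.526 for BL6 replicate 1, against 0.988 to 1.18 elsewhere. The Gast call against Beige was lost in 8 of 21 other settings. Among them were fits without either Beige array or Satin replicate 1, and the fit with no filter (adjusted p = 0.0922). The difference from Beige lay between -1.96 and -1.07 in all 21.

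Grp encodes gastrin-releasing peptide, a bombesin-like neuropeptide of gut nerves. Its deposited signals were, for Satin, 390.3 and 264.7, for Beige 70.2 and 86.4 and for BL6 70.6 and 37.3. Both Satin arrays stood above every control array, with a mean signal 4.95 times that of the controls. This ratio is before normalization, and the Satin arrays were brighter as a whole. As deposited, 44.2% of all genes had both Satin arrays above every control array. The normalized level was 8.15 ± 0.26 (SD, n = 2) for Satin, 6.85 ± 0.07 for Beige and 6.61 ± 0.32 for BL6. Grp rose by 1.42 against both controls (SE 0.22, 95% interval 0.93 to 1.90, adjusted p = 0.0145), a scale on which the added 32 understates the change of a dim gene. It rose against BL6 (1.53, SE 0.25, adjusted p = 0.0310), while against Beige the difference of 1.30 (SE 0.25, adjusted p = 0.0540) was not called. Beige and BL6 did not differ beyond their spread (0.24, SE 0.25, adjusted p = 0.897).

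With Beige replicate 1 left out the adjusted p of Grp was 0.107, with Beige replicate 2 left out 0.0707, and with Satin replicate 1 left out 0.251 (difference 1.22). It was 0.0660 without the intensity trend. The Grp call against BL6 was lost with either Beige array (adjusted p = 0.108 and 0.103) or either Satin array (0.305 and 0.0702) left out. Gast stayed below and Grp above the controls in all 20 settings tried on this comparison.

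**Figure D1:**
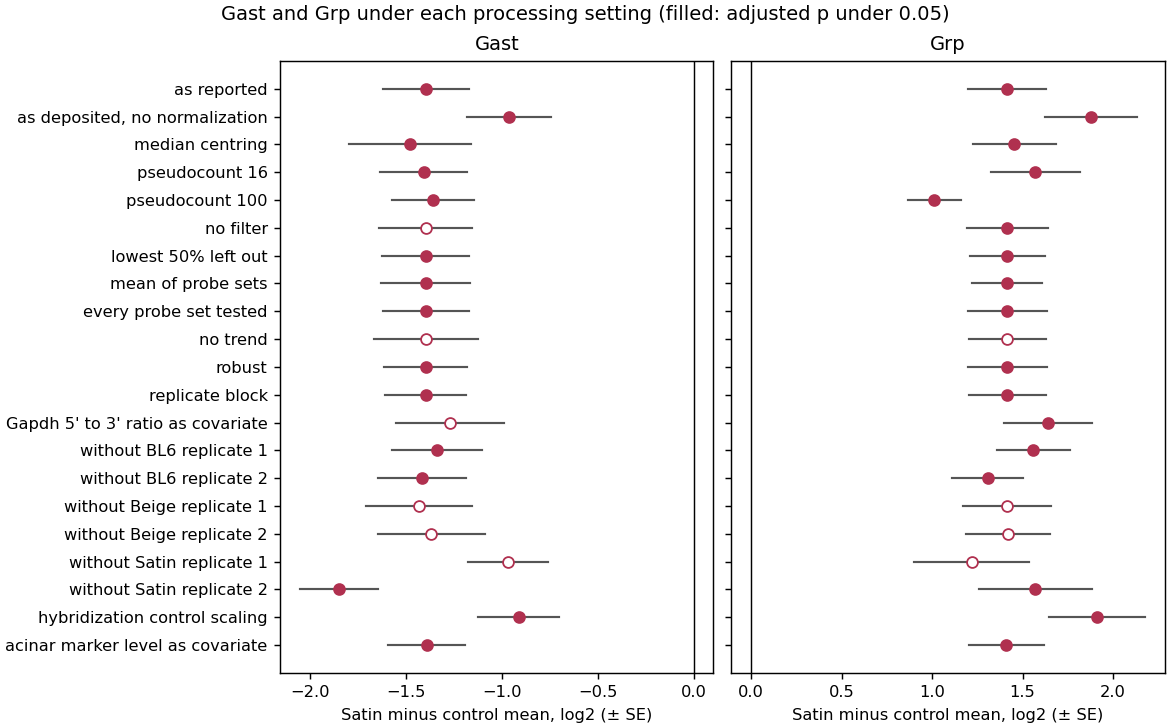
Satin minus the mean of both control strains for Gast (left) and Grp (right), in log2 units, with the standard error as a bar, under the reported processing and 20 other settings. Filled points have an adjusted p under 0.05. All Gast points lie between -1.85 and -0.91 and all Grp points between 1.01 and 1.91.

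Somatostatin, the peptide of D cells that restrains gastrin, varied widely within strains. Its deposited signals were, for Satin, 861.3 and 341.5, for Beige 786.9 and 747.6 and for BL6 292.3 and 648.1. The highest and the second lowest of the 6 signals were both Satin arrays. The normalized level was 8.86 ± 0.80 (SD, n = 2) for Satin, 9.71 ± 0.31 for Beige and 9.21 ± 0.74 for BL6. The difference of -0.60 from both controls (SE 0.35, 95% interval -1.39 to 0.18, adjusted p = 0.543) was not called, and it was -0.04 without Satin replicate 2. That interval is wide, and the arrays do not show that Sst was the same in the strains.

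Ghrelin, the appetite-stimulating peptide of the gastric mucosa, gave deposited signals, for Satin, of 2539.8 and 1933.3, for Beige of 3351.4 and 3000.2 and for BL6 of 1242.4 and 2384.2. The Satin signals lay inside the range of the controls, and after normalization Satin replicate 2 was the lowest array, just below BL6 replicate 1. Its level was 10.88 ± 0.27 (SD, n = 2) for Satin, 11.66 ± 0.34 for Beige and 11.08 ± 0.49 for BL6, with a difference of -0.50 (SE 0.22, 95% interval -1.002 to 0.00645, adjusted p = 0.403) from both controls. Beige was the highest strain. Beige minus BL6 was 0.58 (SE 0.26, unadjusted p = 0.0496, adjusted p = 0.864). Ghrl was the only hormone of the set with an unadjusted p under 0.05 between the control strains, where 484 genes had one and 0.00% were called.

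**Figure D2:**
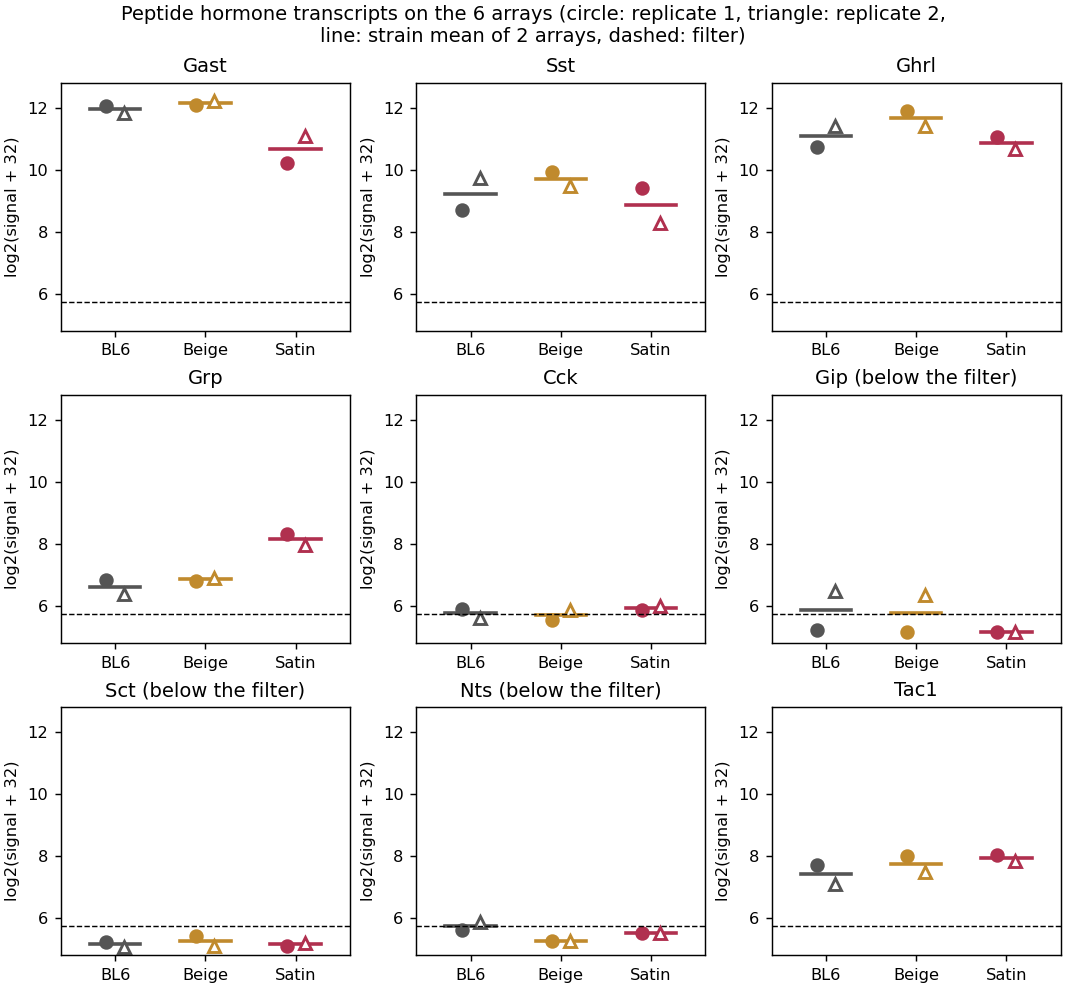
Normalized level, log2(signal + 32), of the 9 hormone genes on each of the 6 arrays, with circles for replicate 1, open triangles for replicate 2, a bar for the strain mean and a dashed line at the filter of 5.74. Satin lies apart from both controls in Gast (10.66 against 12.05) and Grp (8.15 against 6.73), and Gip leaves the floor on BL6 replicate 2 and Beige replicate 2 only.

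Tac1 encodes the precursor of substance P and neurokinin A, tachykinins of enteric nerves. Its signals were, for Satin, 307.6 and 235.5, for Beige 180.8 and 149.9 and for BL6 141.6 and 78.2. As deposited both Satin arrays exceeded every control array, by a mean ratio of 1.97, but after normalization the groups overlapped. The level was 7.92 ± 0.14 (SD, n = 2) for Satin, 7.74 ± 0.36 for Beige and 7.40 ± 0.45 for BL6, and the difference of 0.35 (SE 0.23, 95% interval -0.18 to 0.88, adjusted p = 0.615) was not called. On the arrays as deposited it was 0.87 (adjusted p = 0.0267), when the median of all genes was itself 0.43 higher in Satin, and Tac1 lay 0.44 above that median. Scaled to the hybridization controls it was 0.90 (adjusted p = 0.0252).

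Cholecystokinin, which drives gallbladder contraction and pancreatic secretion, was close to the filter. The Cck signals were, for Satin, 38.0 and 33.9, for Beige 13.1 and 23.2 and for BL6 26.1 and 12.1. Satin was above the controls as deposited, and the groups overlapped after normalization, with a difference of 0.20 (SE 0.31, adjusted p = 0.855). On the arrays as deposited Cck differed by 0.43, the same as the median of all genes, which left 0.01 relative to it. Of the 6 hormones tested, the Satin and control arrays did not overlap in 2, Gast and Grp, on the normalized scale, where this held for 23.7% of all genes. As deposited it held for 4 of the 6, with Grp, Cck and Tac1 above and Gast below, and for 46.2% of all genes (44.2% above, 2.04% below).

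GIP, an incretin of duodenal K cells, gave signals of 42.1 on BL6 replicate 2 and 45.9 on Beige replicate 2, and of 3.4 to 4.4 on the other 4 arrays. The higher Gip signals were thus on 1 array of each control strain and on neither Satin array. Without detection calls they cannot be read as presence or absence. The mean level of pancreatic acinar markers was also high on these 2 arrays (12.91 and 10.26), and on Satin replicate 2 (11.99), where Gip stood at 3.6. Their part in the Gip signal was not tested. Neurotensin, a peptide of ileal endocrine cells, had Nts signals, for Satin, of 20.3 and 16.1, for Beige of 5.5 and 5.8 and for BL6 of 14.4 and 18.2. Secretin, which stimulates pancreatic bicarbonate, had Sct signals of 1.2 to 9.1 on all arrays. For these 3 genes the arrays do not give a level that can be compared between strains.

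**Figure D3:**
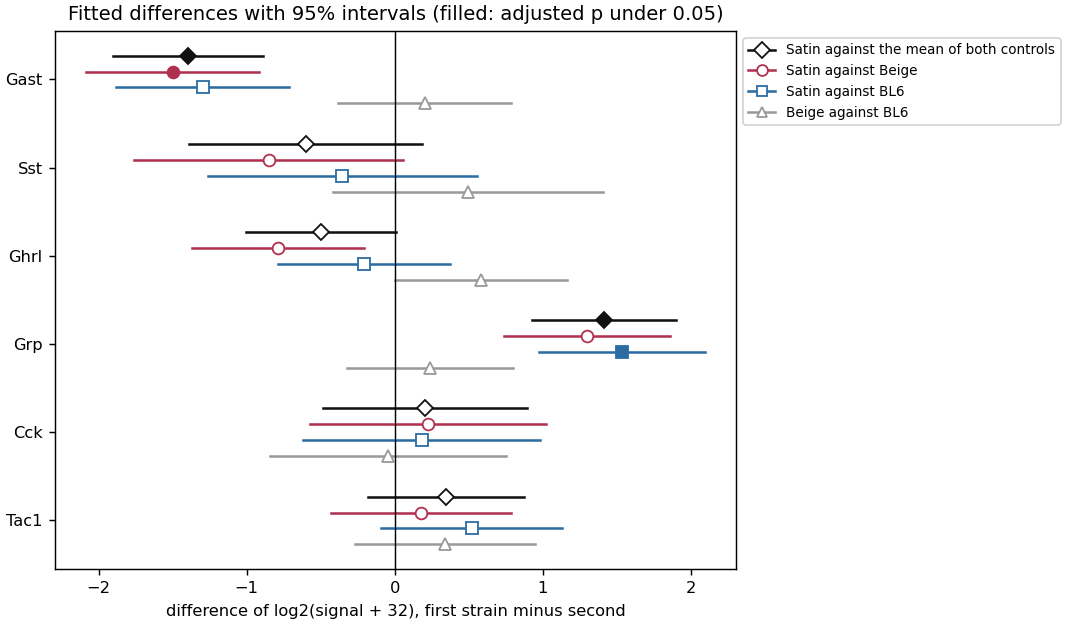
Fitted differences of log2(signal + 32) with 95% intervals for the 6 tested hormones in the 4 comparisons, filled where the adjusted p was under 0.05. Gast lies to the left of 0 (-1.40 against both controls) and Grp to the right (1.42), and the intervals of Sst, Ghrl, Cck and Tac1 against both controls include 0.

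Lists of genes around these hormones were counted in the same fit against both controls, where the median difference was -0.000549 over all genes and -0.15 over the 6 tested hormones, and 1.43% of genes were called. Of 7 tested receptors of the hormones 0 were called (median 0.03). They included Cckbr, the gastrin receptor, at 0.03 (SE 0.37, adjusted p = 0.987), Sstr2, a somatostatin receptor, at 0.16 (adjusted p = 0.893), and Tacr2, a neurokinin receptor, at -0.42 (adjusted p = 0.508). The second Cckbr probe set gave -0.26. Grpr, the receptor through which Grp acts on G cells, lay below the filter.

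Of 8 tested genes of prohormone processing 0 were called (median -0.07). Pcsk1, the convertase that cleaves progastrin, had levels of 7.12 in BL6, 6.88 in Beige and 5.70 in Satin. Both Satin arrays were below all controls, which held for 12.7% of all genes tested. Its difference of -1.30 (SE 0.28, adjusted p = 0.0627) was not called. Pam, the enzyme that amidates gastrin and other peptides, differed the other way by 0.86 (SE 0.26, adjusted p = 0.192). Pcsk2 and the ghrelin acyltransferase gene Mboat4 are not analysed here.

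Of 9 granin and endocrine granule genes 2 fell, both granins, 0 rose and 8 lay below 0 (median -0.31). Chgb, a granin that helps to form secretory granules, fell by 2.35 (SE 0.33, adjusted p = 0.0107), with Satin levels of 7.05 and 7.89, Beige levels of 9.23 and 9.81 and BL6 levels of 10.69 and 9.58. Chga, the common marker of endocrine cells, fell by 1.12 (SE 0.20, adjusted p = 0.0297), to 7.63 in Satin, where Beige had 8.59 and BL6 8.91. Against Beige alone Chga was not called (-0.96, adjusted p = 0.127), whereas Chgb was called against each control strain (adjusted p = 0.0488 against Beige and 0.0184 against BL6). The Chgb call was lost with either Beige array (adjusted p = 0.0707 and 0.0847) or Satin replicate 1 (0.0759) left out. The Chga call was lost with either Satin array (adjusted p = 0.200 and 0.132), BL6 replicate 1 (0.0507) or Beige replicate 1 (0.108) left out. It was also lost without the trend (0.140), with the Gapdh covariate (0.110) and under other scalings, at -0.59 (0.0712) as deposited, -0.54 (0.0788) with the hybridization controls and -1.05 (0.0591) with median centring, and narrowly with no filter (0.0520) and averaged probe sets (0.0501). For Chgb the robust variance option (0.0591), the Gapdh covariate (-1.77, 0.0542) and a fit with no trend (0.0827) each ended the call.

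Of 10 endocrine transcription factors 0 were called (median -0.12). Pdx1, required for antral G cells, differed by -0.02 (SE 0.23, adjusted p = 0.981). Neurog3, which specifies endocrine progenitors, differed by -0.89 (SE 0.29, adjusted p = 0.227) on its brighter probe set and by 0.22 on the dimmer one. Isl1, a factor of mature endocrine cells, differed by -0.30 (adjusted p = 0.653). Nkx6-3 is not analysed here.

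Of 13 other gut peptide and amine enzyme genes 0 were called, with 10 below 0 and a median of -0.40. Tph1, the rate-limiting enzyme of serotonin synthesis in enterochromaffin cells, differed by -0.90 (SE 0.25, adjusted p = 0.140). Ddc, the decarboxylase of the next step, differed by 0.72 (SE 0.15, adjusted p = 0.0621). Neither passed, and they lay on opposite sides of 0. Of 4 tested genes for nutrient sensing and input receptors of G cells 0 were called, with the calcium-sensing receptor gene Casr at -0.52 (adjusted p = 0.489) and the amino acid receptor gene Gprc6a at -0.59 (adjusted p = 0.590).

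Of 7 genes known to respond to gastrin 0 were called, with 4 above and 3 below 0 (median 0.06). Clu, the clusterin gene, differed by -0.72 (SE 0.16, adjusted p = 0.0697), and Mcl1, an inhibitor of cell death, by 0.22 (adjusted p = 0.592) with other probe sets on both sides of 0. The histamine-forming enzyme Hdc, a gastrin target in histamine cells of the gastric body, lay below the filter. Of 9 genes of parietal cells, which secrete acid under gastrin, 0 were called and all 9 lay above 0 (median 0.47). The mean over these 9 was 10.63 on Satin replicate 1. On Satin replicate 2 it was 9.96, inside the range of the control arrays (9.57 to 9.99). Slc4a2, the anion exchanger of parietal cells, differed by 0.93 (adjusted p = 0.0794) and Kcne2, a potassium channel subunit, by 0.81 (adjusted p = 0.286).

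**Figure D4:**
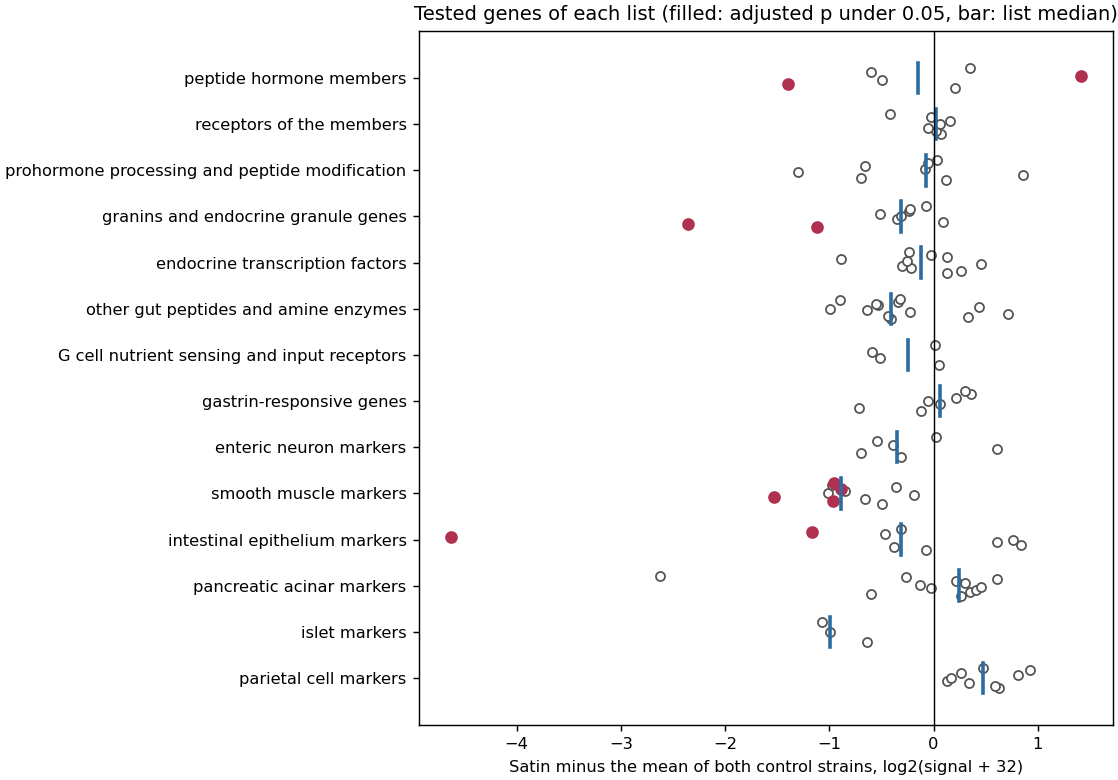
Satin minus the mean of both controls, in log2(signal + 32), for each tested gene of each list, with filled points for an adjusted p under 0.05 and a bar at the list median. The hormones lie on both sides of 0, and the called points outside them are Chgb and Chga among the granins, 4 smooth muscle genes and 2 intestinal genes.

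Markers of the other tissues that an antral sample can hold were counted in the same way. Of 6 tested enteric neuron markers 0 were called, with 4 below 0 and a median of -0.35, and the mean over these 6 was 5.71 and 5.93 on the Satin arrays against 5.83 to 6.36 on the control arrays. Nos1, the neuronal nitric oxide synthase, differed by -0.69 (adjusted p = 0.489) and Prph, a nerve filament gene, by 0.61 (adjusted p = 0.533) on its brightest probe set and by 0.08, -0.05 and -0.25 on the others. The list mean lies near the filter of 5.74, where a difference is understated. The part of nerve tissue in the Grp difference was not tested.

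All 11 smooth muscle markers lay below 0 (median -0.89) and 4 fell, with a mean of 8.86 and 9.04 on the Satin arrays against 9.40 to 9.94 on the control arrays. The 4 were Des (-1.53, adjusted p = 0.00756), Actg2 (-0.97, adjusted p = 0.0396), Tpm2 (-0.95, adjusted p = 0.0149) and Smtn (-0.89, adjusted p = 0.0282), genes of the contractile apparatus. A dimmer Des probe set gave 0.39, and those of Tpm2 gave -0.94, -0.06 and 0.43. Of 9 intestinal epithelium markers 2 fell, the fatty acid binding protein gene Fabp2 (-4.63, adjusted p = 4.71e-06) and the retinol binding protein gene Rbp2 (-1.17, adjusted p = 0.0469). The median of the 9 was -0.31, with 6 below 0 and 3 above. Those above were Apoa4 (0.84), Fabp1 (0.76) and Apob (0.61), none of them called. The list mean was 7.58 and 7.70 in Satin against 8.04 to 8.33 in the controls. It includes Fabp2, at 6.29 and 6.67 in Satin against 10.72 to 11.36 in the controls. The lower mean therefore does not show a fall of the list apart from Fabp2. The muscle calls and that of Rbp2 were each lost in fits that omitted Satin replicate 1 or either Beige array, with an adjusted p between 0.0671 and 0.439, and those of Smtn and Actg2 also without Satin replicate 2 (0.142 and 0.0627). Averaging the probe sets of a gene ended the calls of Des (-0.57, adjusted p = 0.198), Tpm2 (-0.38, 0.367), Actg2 (0.0768) and Rbp2 (0.0896). Without the trend the muscle calls and that of Rbp2 were all lost (adjusted p from 0.0686 to 0.194). The Gapdh covariate ended the 4 muscle calls (0.0537 to 0.150). With no filter Actg2 (0.0786) and Rbp2 (0.0887) were not called. With the hybridization controls Actg2, Smtn, Tpm2 and Rbp2 were not called (0.0579 to 0.270). Median centring ended those of Actg2 (0.161), Smtn (0.185), Tpm2 (0.125) and Rbp2 (0.167). These 4 genes were also not called as deposited, where Actg2 differed by -0.45, Smtn by -0.37, Tpm2 by -0.48 and Rbp2 by -0.65 (adjusted p from 0.0718 to 0.237). With the replicate number as a block Actg2 was not called (0.0634). The part of these tissues in the Gast and Grp differences was not tested.

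The mean level of the 12 pancreatic acinar markers separated arrays of the same strain. It was 12.91 on BL6 replicate 2, 11.99 on Satin replicate 2 and 10.26 on Beige replicate 2, against 7.06 to 7.86 on the replicate 1 arrays. Not every marker followed the mean. Clps was 13.16 to 13.27 on all arrays, and Zg16 was 11.43 on Beige replicate 1 and 11.30 on Beige replicate 2. None of the 12 was called against both controls, with Zg16 at -2.63 (SE 1.05, adjusted p = 0.327) and the elastase gene Cela1 at -0.60 (adjusted p = 0.751). With the mean acinar level as a covariate, an alternative chosen after seeing the data, Gast differed by -1.39 (adjusted p = 0.00837) and Grp by 1.41 (adjusted p = 0.00837). The mean of the 3 tested islet markers was high on BL6 replicate 2 (8.70, against 5.70 to 6.22 on the others). There Ins2, the insulin gene, reached 10.22 (5.41 to 6.01 elsewhere) and Iapp, also of this list, 9.20 (5.03 to 6.22 elsewhere). Gcg, the glucagon gene of islet and intestinal L cells, was 6.66 there and 5.78 to 6.57 elsewhere. Its difference from both controls was -0.64 (adjusted p = 0.337).

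**Figure D5:**
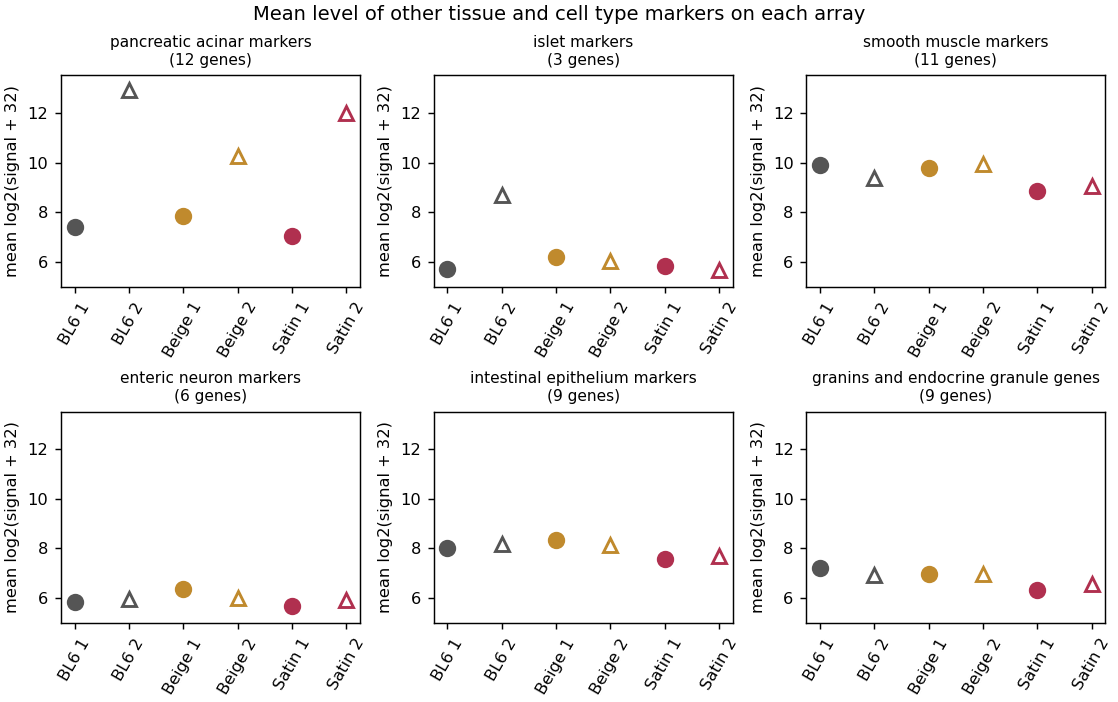
Mean level, log2(signal + 32), of 6 marker lists on each of the 6 arrays, with filled circles for replicate 1 and open triangles for replicate 2. The acinar mean is high on the replicate 2 arrays (10.26 to 12.91), and that of 3 islet markers on BL6 replicate 2 (8.70). The means of smooth muscle markers (8.86 and 9.04) and granins (6.34 and 6.57) are lowest on the Satin arrays.

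The genes whose levels followed each hormone most closely over the 6 arrays are given as a description, since they were picked as the highest correlations among all tested genes with an SD of at least 0.3 and share array and brightness with it. For Gast they were F5 (r = 0.995), Serpinb6a (0.989) and Plac8 (0.987), and for Grp St3gal6 (0.993), Foxa1 (0.992) and Aldh1a1 (0.990). Both sets carry mainly the contrast of Satin with the controls. Sst was followed by Fabp3 (0.962), Hamp2 (0.960) and Apoa1 (0.955), and Ghrl by Phf13 (0.980), Apbb1ip (0.968) and Acad10 (0.961). The nearest genes to Cck were 1810021B22Rik (0.979), Cep70 (0.977) and Lce1a1 (0.959), and those to Tac1 were Taf1d (0.983), Thoc2l (0.975) and Il7r (0.967).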

How the data were processed

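Antral RNA was measured on Affymetrix expression arrays, 2 per strain, which were grouped by title. RNA was extracted with Trizol, per the labels' protocols. The deposited table holds linear intensities, with a signal for each of 22690 probe sets on each array. The sources used here do not give the algorithm behind these signals, any scaling by the authors, or detection calls. The design text speaks of 2 mice of every strain but ties no array to an animal, so p-values measure the spread between arrays, which may be partly technical. At most 88 values were equal between a pair of arrays, and 0 sample columns were unused.

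Signals were quantile normalized and converted to log2(signal + 32). The 64 control probe sets were dropped, and each gene was read from its brightest probe set (20380 had a single symbol, 691 several, and 1555 were not listed). Genes with a mean in the lowest 30% of probe sets (below 5.74) were left out. limma 3.58.1 in R 4.3.3 (trend, two-sided) tested the differences in 1 fit of 6 arrays with 3 residual degrees of freedom, with Benjamini-Hochberg adjustment over 9395 genes. The procedure was also run on simulated signals with capped, independent noise, which cannot show how it behaves at the wider spreads found here. Every adjusted p is from limma. The number of arrays limits the precision, and levels of different probe sets were not set against each other.

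The members, gene lists and tests were chosen with earlier results of these data known. From each list the text names up to 4 called genes or, where a list had none, the 2 of smallest p, plus defining genes such as Cckbr, Chga and Pdx1, and the 3 genes nearest to each hormone in pattern. Alternatives covered scaling, pseudocount, filter, probe set choice, variance model, covariates, the replicate number and each array left out.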

Additional observations from a re-analysis of the deposited data

How the results depend on the processing

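In Satin against both controls 2 hormones were called. The count was 3 as deposited and with the hybridization controls, where Tac1 was called as well. It was 1 with no filter and with the Gapdh ratio as a covariate, and 0 without the trend. In some fits with an array left out it was also lower. Against Beige the count of 1 became 2 as deposited, with a pseudocount of 100, with the lowest 50% left out, with the robust option, in the fit of Beige and Satin arrays alone, and with the hybridization controls or the acinar covariate (the last 2 chosen after seeing the data). It became 0 with no filter, when probe sets of a gene were averaged and without the trend, and lay between 0 and 2 with an array left out. Against BL6 the count of 1 became 3 as deposited and with the hybridization controls, 2 with the robust option and the acinar covariate, and 0 with no filter, averaged probe sets, no trend, the Gapdh covariate and the BL6 and Satin arrays alone, and it was 0 to 1 with an array left out. Between the control strains it was 0 throughout.

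The direction of some differences that were not called turned. Ghrl in Satin against BL6 (-0.21) became 0.36 as deposited and 0.48 with the hybridization controls, and ranged from -0.55 to 0.14 (the latter without BL6 replicate 2) with an array left out. Sst in Satin against BL6 (-0.36) became 0.30 as deposited and 0.41 with the hybridization controls, and ranged from -0.93 to 0.21 with an array left out, above 0 without BL6 replicate 2 (0.17) or Satin replicate 2 (0.21). Sst in Beige against BL6 (0.49) became -0.0805 with the Gapdh covariate and ranged from -0.0262 (without BL6 replicate 1) to 1.01. Cck in Beige against BL6 (-0.04) became 0.12 with the Gapdh covariate and 0.00711 with the hybridization controls, and ranged from -0.21 to 0.12, above 0 without BL6 replicate 1 or Beige replicate 1. Tac1 in Satin against Beige (0.18) ranged from -0.0776 (without Beige replicate 2) to 0.44. The causes were not tested.

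Over all genes 134 were called against both controls, 40 higher and 94 lower. The split became 1469 higher and 62 lower as deposited, 2210 higher and 61 lower under scaling to the hybridization controls, and 32 higher and 53 lower under median centring. Leaving out BL6 replicate 2 gave 293 calls, and leaving out replicates 1 and 2 in turn gave 34 and 29 calls for Beige and 39 and 84 for Satin. The fit with no trend gave 34, the Gapdh covariate 60 and the robust option 223. The median of all genes lay 0.43 higher in Satin as deposited and 0.47 with the hybridization controls. Relative to it Gast differed by -1.39 and -1.38, and Grp by 1.45 and 1.44.

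The origin of the replicate numbers is not given. Deviations of same-numbered arrays correlated at 0.118 for BL6 with Beige, 0.270 for BL6 with Satin and 0.188 for Satin with Beige. With the replicate number as a block, Gast differed by -1.40 (adjusted p = 0.0192) and Grp by 1.42 (adjusted p = 0.0187), the counts of hormones called were 2, 1, 1 and 0, and 123 genes were called against both controls. Signal over background limits Gip, Sct and Nts, and 2 arrays per strain limit every comparison.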

Other observations

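A further gut peptide gene, Nmu, was singled out after its values were seen. It encodes neuromedin U, a peptide of gut nerves that contracts smooth muscle and belongs to the list of other gut peptides. Its deposited signals were, for Satin, 78.0 and 70.5, for Beige 7.4 and 7.1 and for BL6 9.4 and 6.0. Both Satin arrays thus stood above every control array, which as deposited held for 44.2% of all genes tested. Its mean level of 5.74 lay just under the filter, and it was not tested in the reported fit. In the fit with no filter it differed by 1.15 (SE 0.22, adjusted p = 0.0801) and was not called.

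Reg1, a regenerating protein gene counted here among those known to respond to gastrin and also abundant in pancreatic acinar cells, differed by 0.36 (SE 1.74, adjusted p = 0.960). Its levels were, for Satin, 6.26 and 11.25, for Beige 6.42 and 8.28 and for BL6 6.04 and 12.82. It was thus highest on the arrays on which the acinar markers were highest.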
